A study of Mus musculus with 14 samples.

Results

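The genes described here are 41 genes of the synaptic vesicle release machinery, taken from a list of named genes. The list was chosen with earlier results of these data known, so its shares of called genes are not those of an independently chosen set. All 41 of 41 were measured among the 18193 genes of the array table, each through its brightest probe set, judged by the mean over the arrays, and 33 of them had more than 1 probe set. The libraries came from mice bred onto the RiboTag background, in which the ribosomes of a chosen cell type carry an epitope tag, so that mRNA bound to them can be immunoprecipitated from ventral midbrain. All mice were F2 of 129Sv and C57BL/6. Tfr1-null mice lacked transferrin receptor 1, the receptor that carries iron into cells, in dopaminergic neurons and controls were heterozygous for the Tfr1 allele. At 3 weeks of age the groups held 3 control and 4 Tfr1-null libraries. At 10 weeks they held 4 control and 3 Tfr1-null libraries, which makes 14 in all. The study placed these ages early and late in the loss of dopaminergic neurons and asked what the neurons translate at each. The labels used here name neither the driver of the deletion nor whether a library came from 1 animal or a pool, so the p-values measure the spread between these libraries, which may be technical.

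Dopaminergic neurons release dopamine from vesicles that fuse with the membrane of the axon terminal. Vamp2 on the vesicle and Stx1a and Snap25 on the membrane are SNARE proteins, which zip together and pull the membranes into contact. Rab3 GTPases, RIM proteins and Unc13 proteins dock and prime vesicles at the active zone, complexins clamp and assist the SNARE complex, and synaptotagmins sense the calcium that triggers fusion. After fusion Nsf and its adaptors, such as Napb, take the SNARE complex apart for reuse. The release described here is that of the axon terminal, whereas the mRNA measured was taken from midbrain tissue that holds the cell bodies and dendrites.

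Values are log2 signals, and a difference is the Tfr1-null mean minus the control mean of the same age in log2 units, with its standard error (SE) from limma. A gene was called where limma's p, adjusted by Benjamini-Hochberg over all 18193 genes, was under 0.05. Array medians were 6.409 to 6.467 in the younger mice and 7.363 to 7.434 in the older ones, so levels were not compared between ages, nor between probe sets. Tfrc, the targeted gene, contradicted the labels of 2 libraries. At the 5′ and middle control probe sets of Tfrc, the library labelled Tfr1-null 3 weeks 1 gave 9.67 and 8.82, beside 9.50 to 9.59 and 8.80 to 8.86 in controls, and GEO's source field calls it a control. Tfr1-null 3 weeks 2 to 4 gave 6.88 to 7.73 and 10.70 to 10.98. The 10-week counterpart, labelled control 10 weeks 1, gave 8.55 and 11.43, beside 9.63 to 10.44 and 9.17 to 9.86 in the remaining controls. The Tfr1-null libraries at 10 weeks gave 7.79 to 9.29 and 11.39 to 11.69. Calls are therefore given for the 14 libraries as labelled and for the 12 that remain without these 2, which were doubted for Tfrc and not for a release gene. Y-linked genes and Xist gave a male profile for 1 of the 7 younger libraries and all 7 older ones, so age and sex cannot be told apart. The younger library with a male profile was control 3 weeks 2. Sex was therefore not balanced between the genotypes at 3 weeks either.

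At 10 weeks release genes were called in both directions, and the core fusion genes were not among them. In the 12-library fit 13 of the 41 genes were called. Stxbp5, Unc13a, Rab3b and Syt4 rose, and Cplx1, Cplx2, Rims1, Rab3c, Sv2c, Syt7, Syt13, Syt17 and Nsf fell, with differences from -0.77 to 0.92. The 4 that rose were 9.76% of the members, beside 4.73% of all genes called higher, and the 9 that fell were 22%, beside 6.34% of all genes called lower. Release genes are bright on these arrays, 39 of 41 lying above the median of all genes. Among genes above that median 7.32% were called higher and 9.55% lower. The median difference of the 41 genes was -0.08, beside -0.01 for all genes, and the median size of the difference regardless of sign was 0.38, beside 0.20. Fitted to the 10-week libraries alone, 1 gene was called, Stxbp5, and with array weights 7 were. The fit of 1 age has fewer arrays behind each gene's spread and shares no spread with the other age. Correlations between libraries were 0.99 to 0.9969 at 3 weeks and 0.9671 to 0.9875 at 10 weeks. Over all genes, fitting 1 age alone lowered the 10-week calls from 861 higher and 1154 lower to 108 and 136. It raised the 3-week calls from 124 and 211 to 382 and 536. So 12 of the 13 calls were made only with the 3-week libraries in the fit. Leaving out 1 library ended the call of Nsf and Sv2c (without Tfr1-null 10 weeks 1 or 3 or control 10 weeks 4), Rims1 (without Tfr1-null 10 weeks 1 or 3), Syt17 (without Tfr1-null 10 weeks 3) and Rab3b, with limma adjusted p up to 0.126, and of none of the other 8. In pooled mRNA of this kind, fewer cells of a type and less RNA per cell cannot be told apart.

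With all 14 libraries as labelled, 2 of the 41 genes were called at 10 weeks. Stxbp5 rose by 0.77 (SE 0.14, limma adjusted p = 0.0364) and Nsf fell by 0.39 (SE 0.08, limma adjusted p = 0.0455). The other 11 genes called with 12 libraries had differences of the same sign, from -0.62 to 0.63, with limma adjusted p from 0.0501 to 0.343. Over all genes 0.594% were called higher and 0.616% lower in that fit. The library labelled control 10 weeks 1 was nearer to the Tfr1-null mean than to the mean of the other controls for 12 of the 13 called members (92.3%), beside 1572 of all 2015 called genes (78%), and for 24 of all 41 members (58.5%), beside 58.4% of all genes. Nsf was the exception, at 14.04 in that library beside 13.95, 13.96 and 14.11 in the other controls.

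**Figure D1:**
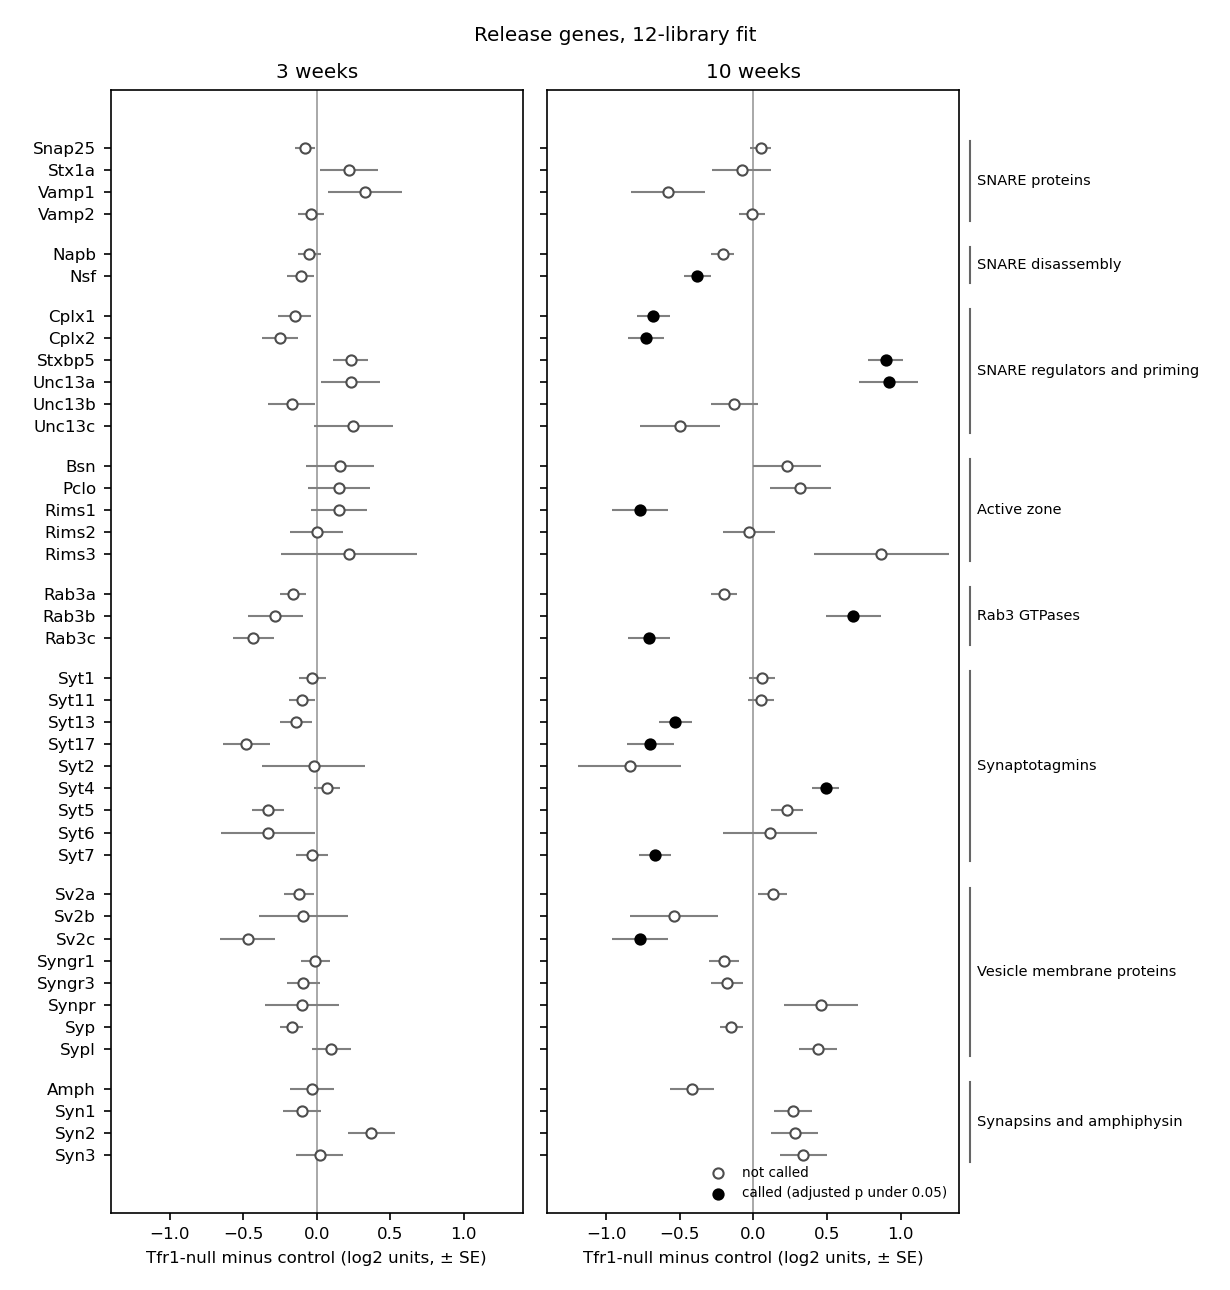
Tfr1-null minus control of the 41 genes at 3 weeks (left) and 10 weeks (right), in log2 units with SE as bars, grouped by role, from the 12-library fit. Filled points are called, none at 3 weeks and 13 at 10 weeks. At their brightest probe sets Snap25, Vamp2 and Syt1 lie near 0 at both ages. Unc13a (0.92) and Stxbp5 (0.90) stand farthest to the right among called genes.

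The DNA before the transcription start is shown for 2 called genes that fell, Cplx1 and Rims1, and 2 that rose, Stxbp5 and Unc13a, so that the neighbourhoods of genes that moved in opposite directions can be read side by side. Each line gives the 250 bases upstream of the RefSeq start on the strand of the gene, 5′ to 3′, in build GRCm38.p6. Capitals mark matches on either strand to ACGTG, the core of the hypoxia response element, and to GGGCGG, the GC box bound by Sp family factors. The windows lie at chr5:108550028-108550277 (Cplx1, minus strand), chr1:22806159-22806408 (Rims1, minus strand), chr10:9901041-9901290 (Stxbp5, minus strand) and chr8:71671758-71672007 (Unc13a, minus strand).
Cplx1: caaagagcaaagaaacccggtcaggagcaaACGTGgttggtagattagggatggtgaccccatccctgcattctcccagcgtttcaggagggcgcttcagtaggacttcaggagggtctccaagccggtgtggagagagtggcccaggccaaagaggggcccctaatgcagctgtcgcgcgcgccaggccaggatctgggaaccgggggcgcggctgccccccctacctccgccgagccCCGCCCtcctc
Rims1: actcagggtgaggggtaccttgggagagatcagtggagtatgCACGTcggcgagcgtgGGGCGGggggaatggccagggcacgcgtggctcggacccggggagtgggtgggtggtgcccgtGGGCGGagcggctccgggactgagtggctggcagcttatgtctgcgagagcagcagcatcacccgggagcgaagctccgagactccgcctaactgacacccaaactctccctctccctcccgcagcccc
Stxbp5: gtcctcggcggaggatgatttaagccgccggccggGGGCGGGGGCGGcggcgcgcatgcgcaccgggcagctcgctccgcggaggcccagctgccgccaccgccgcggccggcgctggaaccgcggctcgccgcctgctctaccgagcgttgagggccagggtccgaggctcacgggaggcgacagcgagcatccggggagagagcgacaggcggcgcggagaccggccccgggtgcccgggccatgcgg
Unc13a: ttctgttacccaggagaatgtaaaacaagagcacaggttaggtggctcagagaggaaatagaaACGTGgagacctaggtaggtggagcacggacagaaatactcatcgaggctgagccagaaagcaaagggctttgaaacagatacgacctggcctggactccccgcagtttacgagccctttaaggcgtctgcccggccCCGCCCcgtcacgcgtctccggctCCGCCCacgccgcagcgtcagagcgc

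Both directions of change included windows with and without the hypoxia core. ACGTG was found before Cplx1, Nsf and Rims1, which fell, and before Unc13a, which rose, 4 of the 9 called genes that have an entry in the RefSeq promoter table. It was found in 7 of the 31 members with an entry and in 18.5% of 27025 genes with an entry. The GC box was found in 24 of the 31 members and 7 of the 9 called genes, beside 35.4% of all genes. TGANTCA, the AP-1 site, was found in 2 of the 31 members and 7.82% of all genes, TGACGTCA, the cyclic AMP response element, in 1 and 1.77%, and TGATGNAA, the amino acid response core, in 1 and 3.91%. None of these last 3 motifs was found before the 9 called genes with an entry. The called synaptotagmins Syt4, Syt7, Syt13 and Syt17 had no entry and were not searched. A match describes the letters of the window and not a bound site.

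The core fusion genes were not called at either age, in either fit. Snap25 read 14.67, 14.67 and 14.73 in control 10 weeks 2 to 4, 14.68 in the library labelled control 10 weeks 1, and 14.74, 14.73 and 14.74 in the Tfr1-null libraries. Its difference was 0.05, with a 95% interval from -0.11 to 0.21 in the 12-library fit. Vamp2 read 14.44, 14.42 and 14.62 in those controls, 14.55 in the doubted library and 14.37, 14.56 and 14.50 in Tfr1-null, a difference of -0.01 (interval -0.21 to 0.18). These are the brightest probe sets. A second set of Vamp2 differed by -0.34 (SE 0.14, limma adjusted p over all probe sets = 0.165), and a second set of Snap25 by 0.08 (SE 0.09).

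Syt1, the main calcium sensor of fast release, read 14.02, 13.93 and 14.20 in control 10 weeks 2 to 4, 13.91 in the doubted library and 14.03, 14.20 and 14.10 in Tfr1-null. The difference was 0.06, with an interval from -0.14 to 0.27, and the groups overlapped. Another bright set of Syt1 differed by -0.28 (SE 0.09, limma adjusted p over all probe sets = 0.0797). There Tfr1-null read 13.52, 13.71 and 13.64, under control 2 to 4 at 13.97, 13.81 and 13.92. The remaining sets of Syt1 differed by 0.01 and, at a dim set, 0.36. Stx1a varied more, at 12.33, 12.60 and 11.95 in those controls, 12.39 in the doubted library and 12.33, 12.21 and 12.10 in Tfr1-null, so its interval was wider (-0.51 to 0.35 around -0.08). Its probe set carries the suffix that Affymetrix gives to sets that may bind several transcripts, and its second set differed by -0.21 (SE 0.16). These intervals do not show that the 4 genes were unchanged. At 3 weeks the differences were -0.08 for Snap25, -0.04 for Vamp2, -0.03 for Syt1 and 0.22 for Stx1a, none called, with limma adjusted p from 0.847 to 0.996. The Stx1a value leaned on Tfr1-null 3 weeks 2, which read 12.34 beside 11.62 and 11.73 in Tfr1-null 3 and 4 and 11.67, 11.75 and 11.62 in the controls. Vamp1 is the relative of Vamp2 that prevails in the hindbrain and spinal cord. It had a difference of -0.58 at 10 weeks (SE 0.25, limma adjusted p = 0.17), but of -0.07 at its second probe set (SE 0.18).

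Of the pair that takes SNARE complexes apart, Nsf, the ATPase, was lower at 10 weeks. It read 13.54, 13.77 and 13.57 in Tfr1-null, under all 4 control libraries, and fell by 0.38 in the 12-library fit (SE 0.09, limma adjusted p = 0.0229). Napb, which holds Nsf to the complex in neurons, differed by -0.21 (SE 0.08, limma adjusted p = 0.107), with the groups apart in the 12 libraries. Its other probe sets, none called, differed by -0.34, -0.08, -0.01, 0.05 and 0.06. The Nsf call rests on its brightest probe set. A second bright set differed by -0.12 (SE 0.12), 2 dimmer sets by 0.39 and 0.13, and the mean of its 4 sets by 0.01.

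Among the 6 genes that regulate SNARE assembly and priming, 2 fell and 2 rose at 10 weeks. Cplx1 and Cplx2, which encode complexins, fell. Cplx1 read 14.63, 14.59 and 14.63 in control 10 weeks 2 to 4 and 13.69, 14.17 and 13.96 in Tfr1-null, and the doubted control library read 13.90, inside the Tfr1-null range. It fell by 0.68 (SE 0.11, limma adjusted p = 0.00387), or 1.60-fold. Cplx2 read 13.51, 13.63 and 13.71 in those controls, 12.76 in the doubted library and 12.75, 13.11 and 12.80 in Tfr1-null. It fell by 0.73 (SE 0.12, limma adjusted p = 0.00363), or 1.66-fold. In both genes all 3 Tfr1-null libraries lay under the 3 controls that were kept.

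All probe sets of both complexins were called lower. The 2 further sets of Cplx1 differed by -1.08 (SE 0.15) and -0.67 (SE 0.10), and those of Cplx2 by -0.91 (SE 0.18) and -0.90 (SE 0.18), all 4 called over all probe sets. As labelled, with 14 libraries, Cplx1 differed by -0.50 (limma adjusted p = 0.131) and Cplx2 by -0.52 (limma adjusted p = 0.172), so both calls depend on leaving out the doubted control library.

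Stxbp5, or tomosyn, binds syntaxin and Snap25 in place of Vamp2 and holds back release. It rose at 10 weeks in both fits. It read 10.60, 10.86 and 10.69 in control 10 weeks 2 to 4, 11.23 in the doubted library and 11.75, 11.42 and 11.66 in Tfr1-null, so that all 3 Tfr1-null libraries lay above all 4 controls. The rise was 0.90 in the 12-library fit (SE 0.12, limma adjusted p = 0.00102), or 1.86-fold. A second probe set rose by 0.36 (SE 0.10, limma adjusted p over all probe sets = 0.0453), less than the brightest one, and another, dimmer, differed by 0.35 (SE 0.34).

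The Unc13 genes prime docked vesicles, and their differences ran in different directions. Unc13a, the main form at forebrain synapses, read 10.58, 10.22 and 10.89 in control 10 weeks 2 to 4, 11.75 in the doubted library and 11.57, 11.29 and 11.61 in Tfr1-null. It rose by 0.92 in the 12-library fit (SE 0.20, limma adjusted p = 0.0144), and differed by 0.63 as labelled (limma adjusted p = 0.235), since the doubted control library was the highest of all 7. Unc13b differed by -0.13 (SE 0.16) and Unc13c by -0.50 (SE 0.27), neither called. A dimmer set of Unc13b differed by 0.34 (SE 0.31), and those of Unc13c by -0.35 and -0.48.

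Of the active zone genes only Rims1 was called. Rims1, which links Rab3 on the vesicle to Unc13 and to calcium channels, read 12.11, 13.00 and 12.44 in control 10 weeks 2 to 4, 11.91 in the doubted library and 11.59, 11.98 and 11.67 in Tfr1-null. It fell by 0.77 (SE 0.19, limma adjusted p = 0.0255), and the highest Tfr1-null library lay only just under the lowest of the 3 controls. Its second probe set differed by -0.25 (SE 0.11). Rims3, a short RIM, had a larger difference of 0.87 (SE 0.46) that was not called, because Tfr1-null 10 weeks 1 read 13.41 while Tfr1-null 2 and 3 read 11.10 and 11.32, near the controls at 11.13, 10.97 and 11.13. The second set of Rims3 differed by 0.04 (SE 0.21). Bsn and Pclo, the giant scaffolds bassoon and piccolo, differed by 0.23 (SE 0.23) and 0.32 (SE 0.21). Their other probe sets ran from -0.35 to 0.29 for Bsn and from -0.86 to 0.68 for Pclo, and none of them was called.

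**Figure D2:**
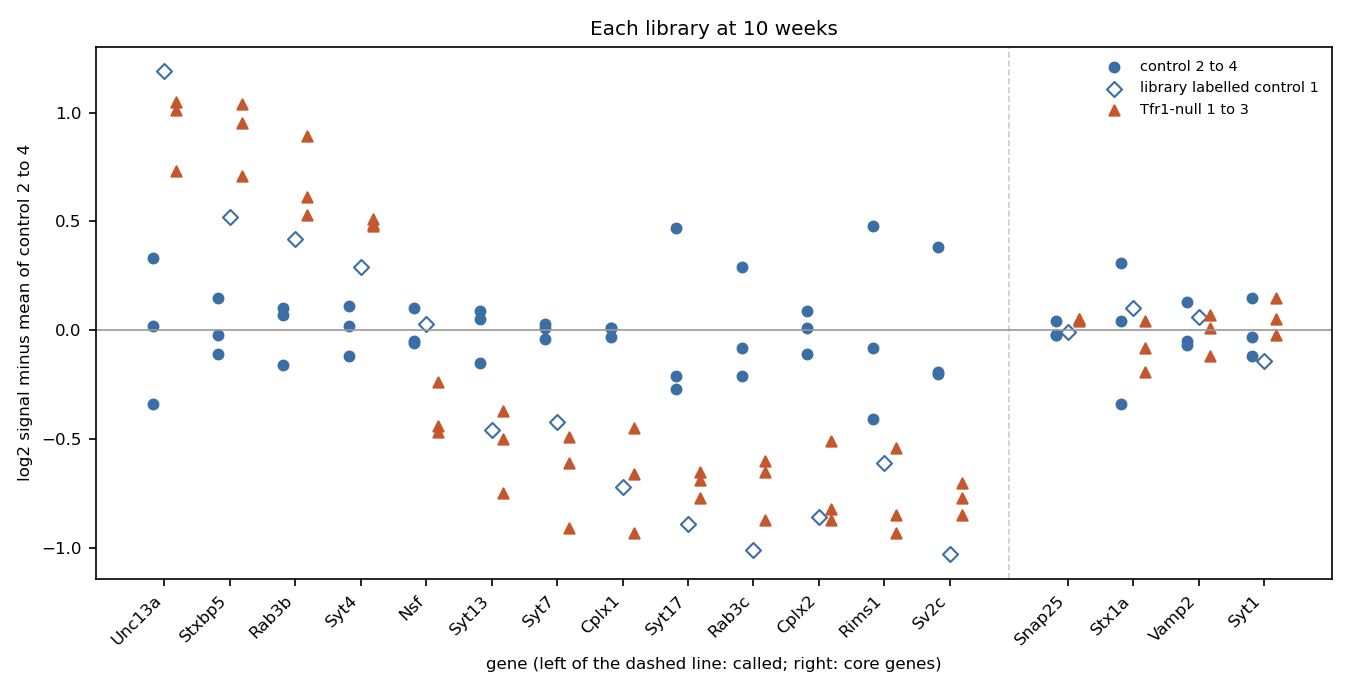
Log2 signal of each 10-week library minus the mean of control 2 to 4, for the 13 called genes (left of the dashed line) and 4 core fusion genes (right); circles are control 2 to 4, triangles Tfr1-null 1 to 3, and the open diamond the library labelled control 1, which was left out of the fit. The diamond lies nearer the triangles for 12 of the 13 called genes, Nsf being the exception, and all symbols of Snap25 lie close to 0.

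The Rab3 genes, whose GTPases tether vesicles near the release site, parted from each other. Rab3c read 13.62, 13.49 and 13.99 in control 10 weeks 2 to 4, 12.69 in the doubted library and 13.05, 13.10 and 12.83 in Tfr1-null. It fell by 0.71 (SE 0.14, limma adjusted p = 0.00886). Rab3b, a form known from midbrain dopaminergic neurons, read 9.72, 9.95 and 9.98 in those controls, 10.30 in the doubted library and 10.41, 10.49 and 10.77 in Tfr1-null.

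Rab3b rose by 0.68 (SE 0.19, limma adjusted p = 0.0438), a call that was kept in only 2 of the 12 fits that left out 1 library each. Rab3a, the most widely used member, differed by -0.20 (SE 0.09, limma adjusted p = 0.185), and at its second probe set by 0.04 (SE 0.12). Of the other probe sets of Rab3c 2 were called, at -0.91 and -0.62, and the 2 dimmer ones, not called, differed by -0.34 and -0.54. At 3 weeks Rab3c read 12.51, 12.51 and 12.73 in Tfr1-null 2 to 4 and 13.04, 13.08 and 12.93 in the controls, groups that did not overlap, with a difference of -0.43 (SE 0.14, limma adjusted p = 0.20). The library labelled Tfr1-null 3 weeks 1 read 13.01, within the controls.

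The synaptotagmins held calls in both directions. Of 9 measured, 1 rose and 3 fell at 10 weeks. Syt7, the slow, high-affinity calcium sensor, read 12.93, 12.88 and 12.95 in control 10 weeks 2 to 4, 12.50 in the doubted library and 12.01, 12.43 and 12.31 in Tfr1-null. It fell by 0.67 (SE 0.11, limma adjusted p = 0.00446). Its 3 other probe sets were all called, at -0.52, -0.61 and -1.48, and the set with -1.48 was the only other probe set of a member called with all 14 libraries, at -1.30.

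Syt4 differs from most synaptotagmins in that a calcium-binding domain of it carries a substitution, and in neurons it sits largely on dense-core vesicles. It read 12.97, 12.83 and 13.06 in control 10 weeks 2 to 4, 13.24 in the doubted library and 13.44, 13.46 and 13.43 in Tfr1-null, the tightest group of the called genes. It rose by 0.49 (SE 0.09, limma adjusted p = 0.00724), and differed by 0.42 as labelled, without a call (limma adjusted p = 0.0573). Its second probe set rose by 0.41 (SE 0.10).

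Syt17, which is also known as B/K protein, read 12.88, 12.94 and 13.62 in control 10 weeks 2 to 4, 12.26 in the doubted library and 12.50, 12.46 and 12.38 in Tfr1-null. It fell by 0.70 (SE 0.16, limma adjusted p = 0.0216), and its second probe set by 0.75 (SE 0.09). At 3 weeks its difference was the largest of the members, -0.48 (SE 0.16, limma adjusted p = 0.252), from 11.66, 11.71 and 11.79 in Tfr1-null 2 to 4 against 12.16, 12.22 and 12.22 in the controls. The library labelled Tfr1-null 3 weeks 1 read 12.10. Syt13, a form without calcium binding, read 13.17, 13.37 and 13.41 in the 10-week controls 2 to 4, 12.86 in the doubted library and 12.57, 12.95 and 12.82 in Tfr1-null. It fell by 0.53 (SE 0.11, limma adjusted p = 0.0116), but its second probe set differed by -0.02 (SE 0.11). Of the rest, Syt2 differed by -0.84 without a call (SE 0.35, limma adjusted p = 0.148), and Syt5, Syt6 and Syt11 by 0.23, 0.11 and 0.05. The dimmer probe sets of Syt2 differed by -0.03 (SE 0.37) and 0.37 (SE 0.25). At 3 weeks Syt5 differed by -0.33 (SE 0.11, limma adjusted p = 0.222), with the groups apart in the 12 libraries.

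Among 8 vesicle membrane genes Sv2c was called. SV2 proteins are transporter-like glycoproteins of the vesicle, and SV2C is the form found in the basal ganglia and in dopaminergic neurons. Sv2c read 12.59, 12.58 and 13.16 in control 10 weeks 2 to 4, 11.75 in the doubted library and 11.93, 12.08 and 12.01 in Tfr1-null. It fell by 0.77 (SE 0.19, limma adjusted p = 0.0285), or 1.71-fold. At 3 weeks it read 11.69, 10.99 and 11.41 in Tfr1-null 2 to 4 and 11.84, 11.69 and 11.96 in the controls, a difference of -0.47 (SE 0.19, limma adjusted p = 0.403).

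Sv2a, the form found in most neurons, differed by 0.13 at 10 weeks (interval -0.08 to 0.35). Sv2b differed by -0.54 (SE 0.30) at its brightest set, with Tfr1-null 10 weeks 1 at 12.53 and the other Tfr1-null libraries at 11.43 and 11.25. Its second probe set fell by 0.97 (SE 0.10, limma adjusted p over all probe sets = 0.000359). Syp, or synaptophysin, the common marker of synaptic vesicles, differed by -0.15 (interval -0.34 to 0.04), and Syngr1 and Syngr3 by -0.20 and -0.18. Dimmer sets of Syngr1 differed by 0.21 and -0.44, and a dimmer set of Syngr3 by 0.00. Sypl, a relative of synaptophysin found in many tissues, differed by 0.44 (SE 0.13, limma adjusted p = 0.0601), and a dimmer set of it rose by 0.95 (SE 0.24).

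None of the synapsins, which tie vesicles to the reserve pool, was called, nor was Amph, which bends membrane in endocytosis. Syn1, Syn2 and Syn3 differed by 0.27, 0.28 and 0.34 at 10 weeks, and Amph by -0.42 (SE 0.15, limma adjusted p = 0.0987). Dimmer sets of Syn3 differed by 0.56 and -0.04. A dimmer set of Syn2 rose by 0.61 (SE 0.17, limma adjusted p over all probe sets = 0.0494), while 3 others differed by -0.14, -0.94 and -1.08.

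Across the 41 genes, 72 probe sets were not the brightest of their gene, and 16 of these were called at 10 weeks in the 12 libraries. For 12 of the 16 the brightest set was called the same way. The other 4, of Rims2, Sv2b, Syn2 and Sypl, belong to genes whose brightest set was not called. The Rims2 sets disagreed, with -0.90 (SE 0.24, called) at 1 dimmer set beside -0.03 at the brightest and 0.51 at another. No probe set was called against the brightest of its gene. Of the 20 other probe sets of called genes, 8 were not called and 2, both of Nsf, had the opposite sign.

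**Figure D3:**
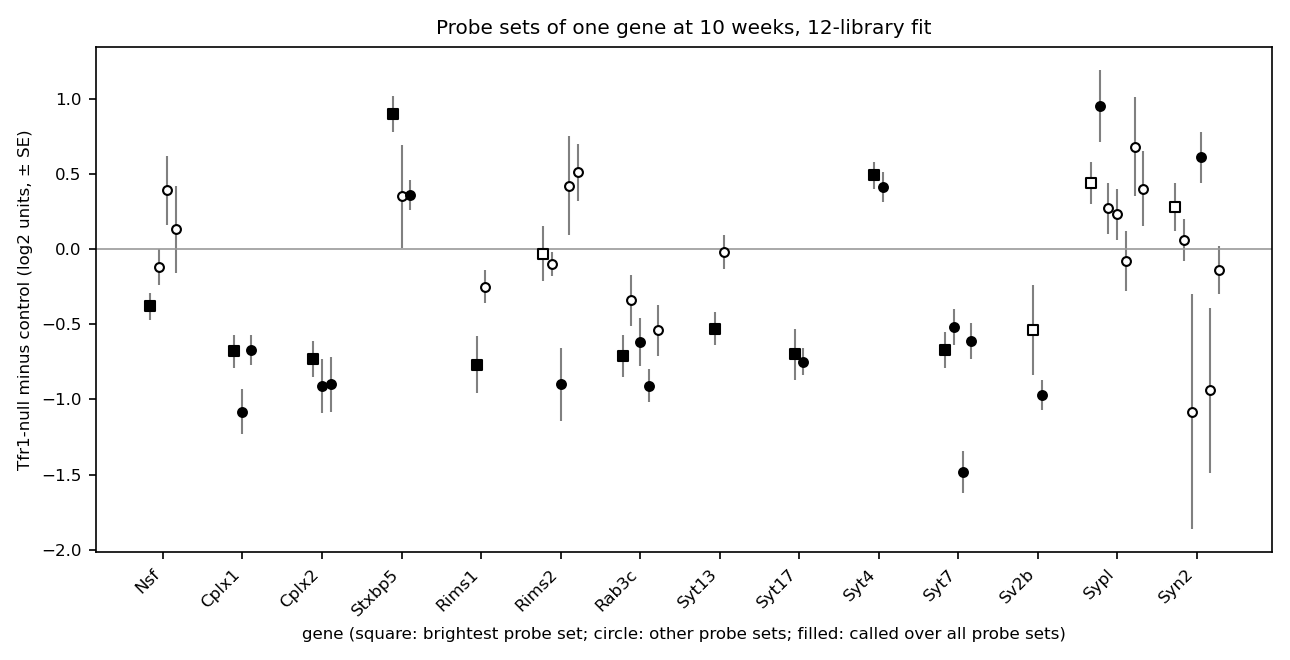
Tfr1-null minus control at 10 weeks for every probe set of the members that have more than 1 set and at least 1 called set, in log2 units with SE as bars, 12-library fit; squares are the brightest set, circles the others, and filled symbols are called over all probe sets. The sets of Cplx1, Cplx2 and Syt7 all lie under 0 and are filled, whereas those of Nsf, Rims2 and Syn2 lie on both sides of 0.

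At 3 weeks none of the 41 genes was called, with 14 or with 12 libraries. In the 14-library fit 0% of all genes were called, and 0 of the members had an unadjusted limma p under 0.05, beside 4.67% of all genes. In the 12-library fit 5 members (12.2%) had such a p, beside 10.6% of all genes, and 0.682% of all genes were called higher and 1.16% lower. Differences ran from -0.48 to 0.37. Every Tfr1-null library lay under every control for 12 of the 41 genes (29.3%), beside 11.6% of all genes and 6 of 8 dopaminergic markers, and above every control for 4 (9.76%), beside 13.3% of all genes. At 10 weeks the groups stood apart downward for 11 genes (26.8%, beside 12.7% of all genes) and upward for 8 (19.5%, beside 9.87%). As labelled, with 14 libraries, they stood apart at 10 weeks downward for 2 members (4.88%) and upward for 5 (12.2%), beside 1015 and 815 of all 18193 genes. At 3 weeks these numbers were 5 (12.2%) and 1 (2.44%), beside 822 and 662. Of the 13 genes called at 10 weeks, 11 had a difference of the same sign at 3 weeks (84.6%), beside 1646 of all 2015 genes called at 10 weeks (81.7%). Rims1 and Rab3b were the 2 that did not.

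The change of the genotype difference between the ages was tested directly. No member was called for it, with 14 libraries (0% of all genes) or with 12 (0.286%), although 10 and 11 members (24.4% and 26.8%) had an unadjusted limma p under 0.05, beside 7.48% and 12.2% of all genes. The nearest in the 12-library fit were Stxbp5, with a difference 0.67 higher at 10 weeks (limma adjusted p = 0.156), Syt7, at -0.64 (limma adjusted p = 0.164), Syt5, 0.56 higher (limma adjusted p = 0.179), and Rab3b, 0.96 higher (limma adjusted p = 0.189). So a call at 10 weeks and none at 3 weeks is not shown to be a difference between the ages.

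**Figure D4:**
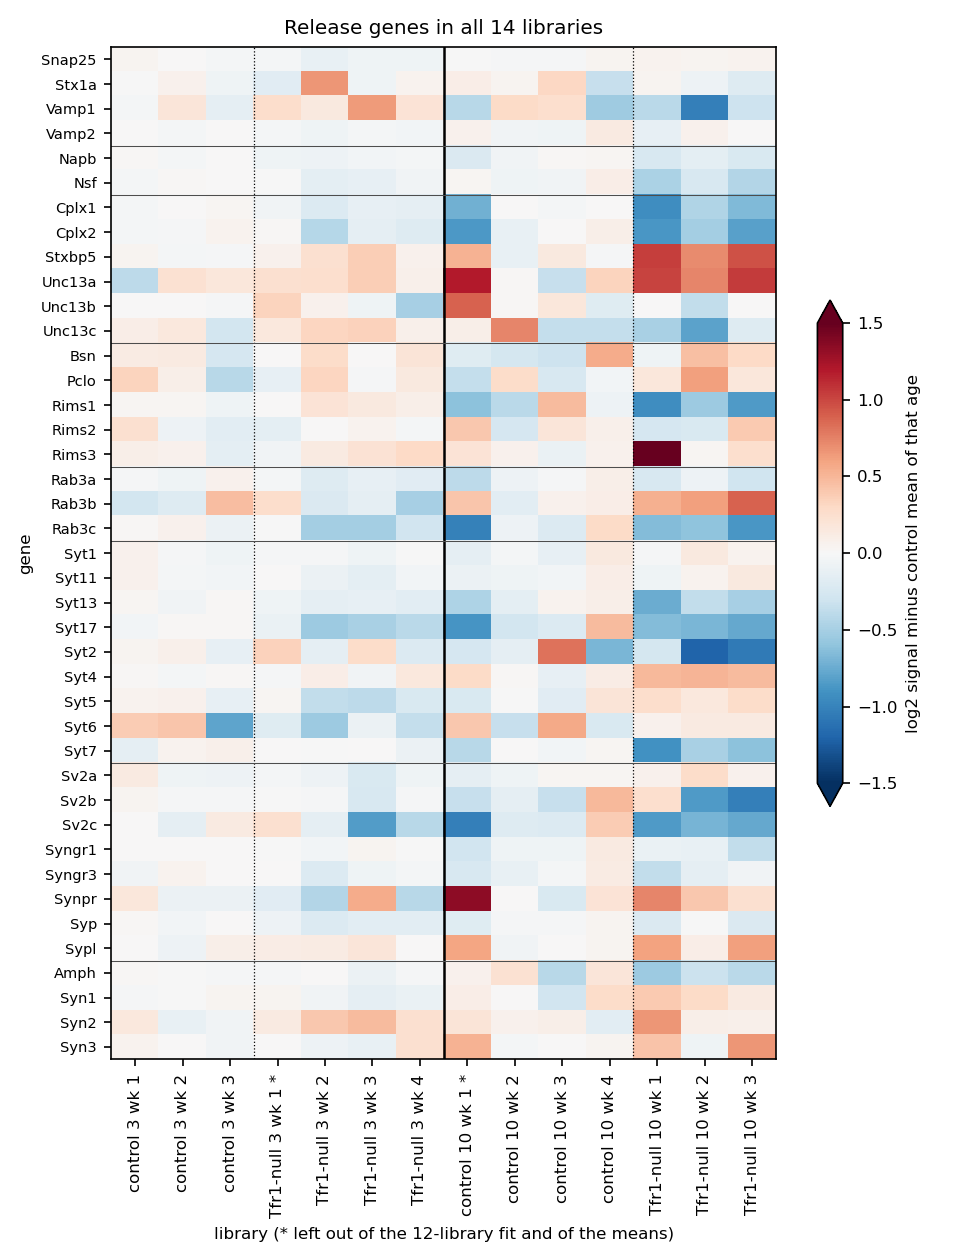
Log2 signal of the 41 genes in all 14 libraries, minus the mean of the controls of that age that were kept, in colour (red higher, blue lower, saturating at the ends of the bar); rows are grouped by role and asterisks mark the 2 libraries left out. The library labelled control 10 weeks 1 shows the blue of Cplx1, Cplx2, Rab3c, Syt17 and Sv2c and the red of Stxbp5 and Unc13a seen in the Tfr1-null libraries of that age.

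Further genes of the pathway, from lists fixed for this work, were called at shares near those of bright genes in general. Of 42 other release and docking genes 3 rose (7.14%) and 4 fell (9.52%) at 10 weeks in the 12-library fit, beside the 7.32% and 9.55% of genes above the median signal. As labelled 0 were called, where 13 (31%) had an unadjusted limma p under 0.05, beside 19.9% of all genes. Those that rose were Stxbp5l, the paralog of Stxbp5, by 0.85 (SE 0.14), Syt14 by 0.94 (SE 0.27) and Doc2b, a calcium-binding protein linked to spontaneous release, by 0.77 (SE 0.18). Syt3 fell by 0.90 (SE 0.10), Napg, a further adaptor of Nsf, by 0.46 (SE 0.09), Lin7a by 0.66 (SE 0.14) and Apba1 by 0.33 (SE 0.09), the last 2 being scaffold proteins of the presynapse. The median of the 42 genes was -0.07.

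Of 31 endocytosis and recycling genes 3 rose and 3 fell (9.68% each way), again close to the shares of genes above the median signal. Itsn2 rose by 0.57, Stam by 0.67 and Gak, the widely expressed uncoating cofactor of clathrin, by 0.46. Pacsin1, or syndapin, fell by 0.65 (SE 0.10, limma adjusted p = 0.00305) and was also called as labelled (-0.57, limma adjusted p = 0.0364), while Vti1a fell by 1.00 and Pip5k1c by 0.56. Of 8 genes on a list of vesicle and related transporters 1 was called in each direction (12.5% each way). Over all genes 4.73% were called higher and 6.34% lower. Slc32a1 was higher by 0.70 (SE 0.13, limma adjusted p = 0.0071) and Slc2a13 lower (-0.54, SE 0.14). Slc18a2, which loads dopamine into vesicles, differed by -0.34 (limma adjusted p = 0.0607). At 3 weeks no gene of these 3 lists was called. In the 12 libraries 5, 0 and 2 had an unadjusted limma p under 0.05 (11.9%, 0% and 25%), beside 10.6% of all genes.

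Marker levels of cell types also differed between the genotypes in the 12-library fit, to which the calls here refer. As labelled, with 14 libraries, no marker was called at either age. Limma adjusted p at 10 weeks was then 0.224 for Ddc, 0.0507 for Foxa1 and 0.196 for Slc32a1. The mean log2 signal of 8 dopaminergic markers ran from 12.97 to 13.36 in control 10 weeks 2 to 4 and from 12.54 to 12.86 in Tfr1-null, without overlap. With the doubted library the control range began at 12.64, which overlaps Tfr1-null. None of the 8 was under background in a group. Among them Ddc fell by 0.32 (limma adjusted p = 0.0488) and Foxa1 by 0.86 (limma adjusted p = 0.000235), whereas Th (-0.23, limma adjusted p = 0.0953), Slc6a3 (-0.31, limma adjusted p = 0.052), Slc18a2, Pitx3 (-1.86, SE 0.69), Nr4a2 (0.10) and En1 (0.01) were not called. Pitx3 read 12.42 in control 10 weeks 3 beside 8.99 and 9.30 in controls 2 and 4. Without it, a choice made after its values were seen, the mean ran from 13.49 to 13.66 in controls and from 13.18 to 13.43 in Tfr1-null. At 3 weeks the mean of the 8 ran from 12.22 to 12.24 in controls and from 12.04 to 12.10 in Tfr1-null 2 to 4, and 6 of the 8 lay lower without overlap, though none was called. In the 10-week libraries the mean of 3 GABAergic markers ran from 10.87 to 11.21 in controls 2 to 4 and from 11.13 to 11.62 in Tfr1-null. These ranges overlap. Slc32a1 was called at 10 weeks, but Gad1 (0.27) and Gad2 (0.24) were not. No marker of astrocytes (5 genes), oligodendrocytes (4), microglia (5), endothelial cells (4), glutamatergic neurons (4) or cholinergic and monoaminergic neurons (5) was called, and of all these only Tbr1 and Chat were not above background in a group. The part of these shifts in the values of the release genes was not tested.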

How the data were processed

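The deposited values are log2 signals of Affymetrix mouse arrays, which the authors made with Partek 6.5 and RMA, per the submitters' processing notes. Per the labels' protocols, 50 ng of RNA was amplified with a NuGEN Ovation kit. The table held 45101 probe sets. Those with several gene symbols (932), with none (9211) and control sets were left out, and 34945 sets of 18193 genes were used. A gene counted as not above background where every library of a group lay under its array's 25th percentile. limma 3.58.1 in R 4.3.3 (lmFit, eBayes) fitted 4 group means with 1 shared spread per gene, and tests were two-sided. Promoter matches were counted in Python 3.11.15 with pandas 2.3.3. The scripts were tested on simulated data.

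Per-library values are given for called members, the 4 core genes and those nearest to a call, and from the other lists up to 4 called genes per direction. Other members named with values were chosen after these were seen. The members and lists were chosen with earlier results of these data known. The 5′ and middle Tfrc sets are array controls. Alternatives were scaling, filters, array weights, fits of 1 age, probe set means, a replicate block and leaving out each library. The number of arrays limits the precision.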

Additional observations from a re-analysis of the deposited data

Results flagged for a closer look

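Of 82 groups of 4 libraries, 6 held a library whose gap to its nearest neighbour took up most of the group's range, where chance alone gives about 1 in 20 groups. The library labelled control 10 weeks 1 was that library in 4 of the 6: it read 13.90 for Cplx1 beside 14.59 to 14.63 in the other controls, 12.50 for Syt7 beside 12.88 to 12.95, 10.22 for Syn3 beside 9.67 to 9.74, and 11.06 for Sypl beside 10.42 to 10.51. Control 10 weeks 4 read 11.33 for Bsn beside 10.46 to 10.59. Tfr1-null 3 weeks 3 read 11.83 for Sv2b beside 12.05 to 12.06 in the other libraries labelled Tfr1-null at that age.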

How the results depend on the processing

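Of the 13 members called at 10 weeks in the 12-library fit, 13 stayed called with median centring, quantile normalization within age, an eBayes trend or a filter on dim genes. Members called numbered 7 with array weights, 1 (Stxbp5) with the 10-week libraries fitted alone and 0 with the replicate block. The replicate numbers did not pair the samples (same-numbered correlations -0.078 to 0.088). Leaving out 1 library each gave 8 (without Tfr1-null 10 weeks 3) to 14 called, and Cplx1, Cplx2, Rab3c, Stxbp5, Syt4, Syt7, Syt13 and Unc13a were called in all 12 such fits. The mean of all probe sets turned Nsf to 0.01 and ended the call of Syt13. With the 14 libraries as labelled the 10-week count of 2 became 13 in the 12 libraries, 4 with the eBayes trend, 1 with median centring or quantile normalization, and 0 with array weights, 1 age alone, probe set means or the replicate block. It ran from 0 to 12 when 1 library was left out, the 12 being without the library labelled control 10 weeks 1, and it was 0 without any of Tfr1-null 10 weeks 1 or 3, Tfr1-null 3 weeks 2 to 4, control 10 weeks 2 or 4, or the 3-week controls. At 3 weeks the 12-library count of 0 became 3 with array weights (Rab3c, Syt5 and Syt17), 2 with that age alone (Rab3c and Syt17), and 0 to 1 with a library left out, the 1 (Syt17) being without control 10 weeks 4. No member was called for the difference between ages, or at 3 weeks with 14 libraries, under any alternative tried. Uncalled core genes near 0 changed sign. With 14 libraries at 3 weeks, probe set means gave Stx1a -0.04 and Syt1 0.06, quantile normalization gave Vamp2 0.01, and leaving out 1 library gave Stx1a -0.06 to 0.22 and Syt1 -0.05 to 0.01. At 10 weeks Vamp2 became 0.00 with median centring, 0.02 with quantile normalization, 0.01 with the replicate block and -0.07 to 0.03 with a library left out. With 12 libraries at 3 weeks, probe set means gave Syt1 0.04, quantile normalization gave Vamp2 0.01, and leaving out a library gave Stx1a -0.00 to 0.35 and Syt1 -0.05 to 0.01. At 10 weeks Vamp2 became 0.02 with centring, 0.05 with quantile normalization, 0.10 with the replicate block and -0.06 to 0.05 with a library left out, which gave Stx1a -0.25 to 0.07. The causes were not tested. The 4 member probe sets under background in every library can show little.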
